A study of Mus musculus with 4 samples.

Results

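Granule neuron nuclei of the dentate gyrus (DG) were picked out of single nuclei of mouse cortex and hippocampus by their RNA. A kept nucleus was counted as a DG granule nucleus when it held at least 1 unique molecular identifier (UMI, the tag that marks a single captured RNA molecule) of Slc17a7, the vesicular glutamate transporter of cortical and hippocampal excitatory neurons, no more than 2 UMIs of the GABA synthesis genes Gad1 and Gad2 together, and a UMI of at least 3 of the 7 genes Prox1, Dsp, Glis3, C1ql2, Trpc6, Lct and Plk5. This rule selected 1989 of 36094 kept nuclei, against 18011 other excitatory nuclei. These 10 genes chose the nuclei, so no test of them is given.

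The nuclei came from 4 C57BL/6J mice of 5 weeks of age, each of which gave 1 library of pooled cortex and hippocampus whose nuclei were sorted by flow cytometry. The genotype of 2 mice is labelled Sel1L flox/flox (here Sel1L-fl/fl) and that of the other 2 is labelled Sel1L Syn-Cre (here Sel1L-SynCre). Per the study's methods the latter came from crossing the floxed mice with a line that carries a Cre transgene driven by the Synapsin I promoter, which is active in neurons after they have left the cell cycle and is not specific to the DG. The study compared these genotypes to learn what the loss of SEL1L does to neurons. DG granule nuclei numbered 830 and 447 in replicates 1 and 2 labelled Sel1L-fl/fl and 378 and 334 in replicates 1 and 2 labelled Sel1L-SynCre, with 10083099, 4984251, 4123242 and 3927349 UMIs in the same order. Median UMIs per nucleus were alike, at 9478, 9218, 9220.5 and 9197, and so were median genes per nucleus, at 3528, 3554, 3578.5 and 3606.5. Values of the 4 libraries are given below in this order, and the groups are called fl/fl-labelled and SynCre-labelled.

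Granule neurons are the principal cells of the DG. They receive the perforant path from the entorhinal cortex and send mossy fibres to hilar mossy cells and to CA3 pyramidal neurons, and the transcription factor Prox1 keeps them distinct from CA3 neurons. SEL1L is the adaptor of the ubiquitin ligase HRD1 (gene Syvn1) in endoplasmic reticulum (ER)-associated degradation (ERAD), which moves misfolded proteins out of the ER to the proteasome. When misfolded proteins build up, the sensors IRE1α (Ern1), PERK (Eif2ak3) and ATF6 (Atf6) start the unfolded protein response (UPR), which raises ER chaperones and ERAD genes through XBP1 and ATF6 and amino acid genes through ATF4.

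The labels were checked against the RNA first. UMIs of the Cre feature numbered 52, 0, 20 and 21 in the DG granule nuclei, or 5.16, 0, 4.85 and 5.35 CPM (UMI counts scaled to a common total of UMIs). Sel1L-fl/fl replicate 1 therefore held Cre RNA at the level of the SynCre-labelled libraries, while replicate 2 of the same label held none, where a count of 0 allows up to 0.602 CPM. Nuclei with a Cre UMI made up 5.78%, 0%, 5.03% and 6.29%.

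Sel1l itself (ENSMUSG00000020964, GRCm38 chr12:91806043-91849157) gave 847, 392, 787 and 645 UMIs. Its level was 85.8 and 80.3 CPM in the fl/fl-labelled libraries and 190 and 161 CPM in the SynCre-labelled ones, so that the groups did not overlap and the second was the higher. It rose by 1.08 ± 0.114 (SE) on the log2 scale (edgeR quasi-likelihood test, adjusted p = 0.00333). A 3′ gene count does not tell whether the floxed exons are in the RNA, so this value checks nothing about the deletion. The Cre UMIs of Sel1L-fl/fl replicate 1 go against its label, so groups are named as labelled throughout, and the main results are also given without that library. In both groups replicate 1 held the Y-linked gene Ddx3y and replicate 2 held Xist, with 496, 0, 223 and 0 UMIs of Ddx3y and 4, 10636, 2 and 8039 of Xist, so that replicate number and sex coincide. Between 9 and 32 barcodes were shared by a pair of libraries among kept nuclei, and 0 among DG granule nuclei.

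DG granule nuclei were also rich in granule neuron genes that the rule had not used. Maml2 stood at 11.5 to 16.6 times its level in other excitatory nuclei of the same library, and a UMI of it was found in 95.7%, 94.4%, 96.3% and 97.6% of DG granule nuclei against 27.1%, 21.2%, 28.6% and 28.7% of other excitatory nuclei. Dock10 was at 7.12 to 12.2 times, Stxbp6 at 5.67 to 6.78 times and Tdo2 at 12 to 18.6 times the level in other excitatory nuclei. These are descriptions of nuclei chosen by related genes and were not tested. The excitatory nuclei set against them were somewhat deeper, with median UMIs of 11902, 11013, 10825 and 11091. The mossy cell gene Drd2 was at no more than 0.728 CPM in any library. The list of 4 mossy cell markers, led by Ap2s1 with 340 UMIs, summed to 15.67, 16.45, 15.04 and 18.33 CPM. In CA1-like nuclei, a cluster named by marker lists, the same sums were 11.74, 12.02, 14.98 and 11.53 CPM. Cpne4, counted among the CA3 markers, was as high in DG granule nuclei as in other excitatory nuclei (1.06 to 1.3 times).

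**Figure D1:**
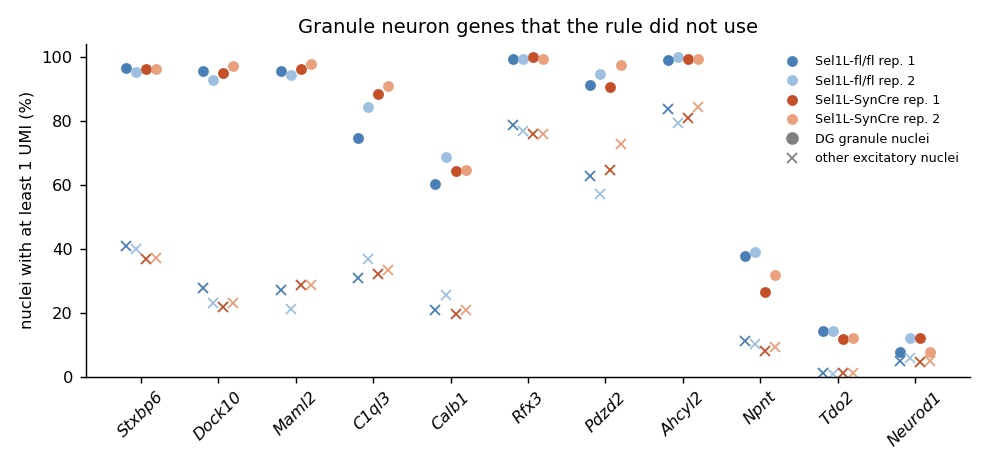
Share of nuclei (%) with at least 1 UMI of 11 granule neuron genes that did not enter the rule, in DG granule nuclei (circles) and other excitatory nuclei (crosses) of each of the 4 libraries. Dock10 was found in 92.6% to 97% of DG granule nuclei and in 21.8% to 27.8% of other excitatory nuclei, while Neurod1 was rare in both.

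Among the 7 genes of the rule, Glis3 was found in 95.7% of DG granule nuclei, Trpc6 in 88.2% and Prox1 in 86.5%, whereas Plk5 (35.6%), Dsp (33.8%), Lct (28.2%) and C1ql2 (14.1%) were each found in a minority. Just inside the threshold, 857 nuclei held 3 of the 7 genes, and just outside it 1363 excitatory nuclei held 2. Dock10 was found in 90.5% of the former and 50.6% of the latter, and Maml2 in 91.7% and 51.9%, with median UMIs of 8682 and 13353. Nuclei with 4, 5, 6 or 7 of the genes numbered 723, 321, 82 and 6.

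When all excitatory nuclei were clustered by expression, 2 of 30 clusters were led by granule neuron markers, and these held 1655 (83.2%) of the DG granule nuclei. The other 334 nuclei lay mostly in clusters led by genes of superficial cortical neurons, CA1-like neurons, oligodendrocytes, astrocytes, oligodendrocyte precursors, microglia or interneurons. The 11 granule genes outside the rule summed to 6710, 7057, 6054 and 6177 CPM in the granule-led clusters, 3190, 2918, 2576 and 2530 CPM in the other 334 nuclei, and 628, 662, 683 and 743 CPM in CA1-like nuclei. The 334 nuclei thus held granule neuron RNA at a level between these types, in clusters led by other genes, and the list counts below are given for the granule-led clusters too. Scrublet, which scores likely doublets, called 146 nuclei in the granule-led clusters and 208 of the 334 elsewhere.

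RNA of other cell types was measured beside these nuclei. The 8 oligodendrocyte markers summed to 523, 283, 179 and 110 CPM, so that both fl/fl-labelled libraries were above both SynCre-labelled ones, and none of the 8 was at 0. Mbp, a myelin protein gene and the most abundant of them, gave 3914 UMIs. In the granule-led clusters the same sums were 154, 129, 101 and 96.8 CPM, and in the other 334 nuclei they were 1234, 758, 424 and 150 CPM. The microglial sums (103, 109, 100 and 84.8 CPM) and the astrocyte sums (61.6, 67.8, 52.4 and 62.4 CPM) lay closer together, with P2ry12 and Slc1a3 the most abundant. Endothelial markers summed to no more than 4.61 CPM.

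In the SynCre-labelled libraries, DG granule nuclei carried more RNA of most tested ER folding genes (15 of 22) and of a minority of ERAD genes (4 of 21), UPR regulators (5 of 17) and amino acid transporters (4 of 9). Of 13891 genes tested, 112 (0.806%) passed, 72 (0.518%) higher and 40 (0.288%) lower in SynCre-labelled nuclei (edgeR quasi-likelihood test on summed UMIs, Benjamini-Hochberg adjusted p under 0.05, n = 2 libraries in each group), and 1774 had an unadjusted p under 0.05. In the granule-led clusters 240 of 12839 genes (1.87%) passed, with 67 of the 72 higher and 27 of the 40 lower genes among them, and 6 of the lower ones not tested there. Without Sel1L-fl/fl replicate 1, 643 of 14317 genes (4.49%) passed, and these included all 112. With Sel1L-fl/fl replicate 2, Sel1L-SynCre replicate 1 or Sel1L-SynCre replicate 2 left out instead, 833, 136 and 180 genes passed, each time with 1 library standing for its group and assumed to vary like the other group. The first of these fits kept all 112 calls, the second 34 of the 72 higher and 30 of the 40 lower, and the third 60 and 25. Fits on 3 libraries estimate the spread from a single pair, so a larger count there does not show that more genes changed. The median log2 fold change over all genes tested was 0.00669.

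The largest rise belonged to Derl3 (ENSMUSG00000009092, chr10:75893413-75895941), a member of the derlin family that serves the exit of ERAD substrates from the ER. It gave 8, 3, 188 and 105 UMIs, or 0.81, 0.614, 45.5 and 26.2 CPM scaled by the trimmed mean of M values (TMM), with no overlap between the groups. Derl3 rose by 5.55 ± 0.39 on the log2 scale (adjusted p = 0.000598 in edgeR). Nuclei with a Derl3 UMI made up 0.964%, 0.671%, 36% and 25.1% of DG granule nuclei, against 0.352%, 0%, 1.64% and 1.63% of CA1-like nuclei, whose median UMIs were 12894.5, 12642, 11603 and 12162. After each nucleus was thinned to 2000 UMIs the shares in DG granule nuclei were 0%, 0%, 9.55% and 5.99%.

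Of the genes of ER protein folding, 15 of 22 tested rose and none fell, with a median log2 fold change of 1.33 over the 22. Hspa5 (chr2:34771970-34777547), the ER HSP70 chaperone that also restrains the UPR sensors, gave 269, 134, 459 and 369 UMIs (27.3, 27.4, 111 and 92.1 CPM). The groups did not overlap, and Hspa5 rose by 1.89 ± 0.129 (adjusted p = 0.000598). Dnajc3 (chr14:118937976-118981697), an ER co-chaperone, gave 491, 208, 885 and 637 UMIs (49.7, 42.6, 214 and 159 CPM) and rose by 2.01 ± 0.154 (adjusted p = 0.000833). Hsp90b1, the ER member of the HSP90 family, was at 68.1, 61.4, 262 and 188 CPM and rose by 1.79 ± 0.152.

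Of the protein disulfide isomerases, Pdia4, Pdia6 and Pdia3 rose. Pdia4 stood at 11.3, 9.42, 51.8 and 41.7 CPM and rose by 2.14 ± 0.182, Pdia6 rose by 1.79 ± 0.146 and Pdia3 by 1.33 ± 0.148. Sdf2l1, an ER-resident partner of DnaJ co-chaperones, gave 23, 1, 93 and 55 UMIs and rose by 3.52 ± 0.512 (adjusted p = 0.0218); Sel1L-fl/fl replicate 2 rests on a single UMI, the log2 fold change was 6.28 without Sel1L-fl/fl replicate 1 and 2.95 without replicate 2, and the call ended in DESeq2 (adjusted p = 0.208). Creld2 (2.01), Hyou1 (1.67), Dnajb9 (1.44), Txndc11 (1.34), Canx (1.10), Manf (1.04), Calr (0.80) and Uggt1 (0.61) also rose, by the log2 values shown. Ppib (1.32), P4hb (1.02), Dnajb11 (1.01), Txndc5 (0.45), Dnajc10 (0.26), Sil1 (-0.06) and the oxidase Ero1l (-0.15) did not pass, and Fkbp11 had too few UMIs to be tested. Left without Sel1L-fl/fl replicate 1, the log2 fold changes were 5.80 for Derl3, 1.88 for Hspa5, 2.13 for Dnajc3 and 1.12 for Sel1l. Of the 22, 18 rose in the granule-led clusters and 18 without Sel1L-fl/fl replicate 1, and the call on Creld2 ended without Sel1L-SynCre replicate 1 (1.56, adjusted p = 0.0646 in edgeR).

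**Figure D2:**
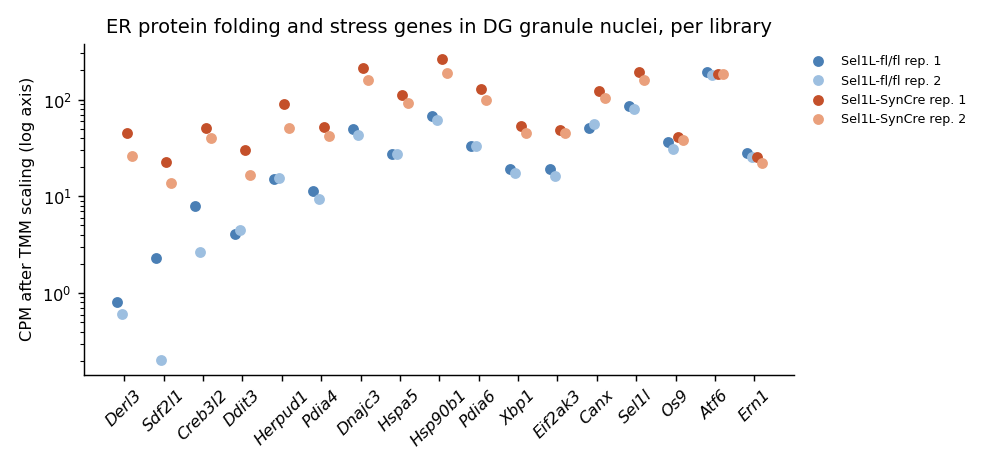
CPM after TMM scaling (log axis) of 17 genes of ER folding, ERAD and the UPR in DG granule nuclei, 1 point for each library. From Derl3 to Sel1l both SynCre-labelled libraries sit above both fl/fl-labelled ones, whereas Atf6 lies between 179 and 191 CPM in all 4 and Ern1 between 22 and 28.1.

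In ERAD, 4 of 21 genes rose and none fell, with a median of 0.227. Beside Derl3 and Sel1l these were Herpud1, a membrane protein that recruits substrates to the HRD1 complex, and Selenos, which links the complex to the cytosolic segregase VCP. Herpud1 was at 15.1, 15.4, 91 and 50.7 CPM and rose by 2.22 ± 0.247 (adjusted p = 0.00395), and Selenos rose by 1.15 ± 0.16. Syvn1, the ligase itself, was at 9.52, 11.1, 23.5 and 15.5 CPM and did not pass (0.94 ± 0.24, adjusted p = 0.131), though it did in edgeR with replicate number as a block (adjusted p = 0.0147). The lectins Os9 (0.23) and Erlec1 (0.31), the mannosidase-like Edem1 (0.35) and the segregase Vcp (-0.02) did not pass either. The granule-led clusters gave 5 of 21 and the libraries without Sel1L-fl/fl replicate 1 gave 6 of 21.

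Of the regulators of the UPR and the integrated stress response, 5 of 17 rose and none fell, with a median of 0.504. Creb3l2 (chr6:37327255-37442146), a transcription factor tethered to the ER membrane, gave 78, 13, 211 and 162 UMIs (7.9, 2.66, 51 and 40.4 CPM) and rose by 2.96 ± 0.32 (adjusted p = 0.00374). In the granule-led clusters its rise was 4.71, and 64 of its 78 UMIs in Sel1L-fl/fl replicate 1 came from nuclei outside them. Without that library its rise was 4.08. Ddit3, which encodes CHOP, was at 4.05, 4.51, 30 and 16.7 CPM and rose by 2.46 ± 0.31. Atf5 (1.95), Xbp1 (1.42) and Eif2ak3 (1.38) rose as well, and the call on Atf5 ended without Sel1L-SynCre replicate 1 (1.51, adjusted p = 0.106). The granule-led clusters gave 6 of 16 and the libraries without Sel1L-fl/fl replicate 1 gave 7 of 19.

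The remaining sensors and ATF4 did not pass. Atf6 was at 191, 179, 182 and 183 CPM (-0.02 ± 0.0903, adjusted p = 0.964). Ern1 was at 28.1, 25.2, 25.6 and 22 CPM (-0.17 ± 0.163, adjusted p = 0.729). Atf4, whose protein level is set largely by translation, had a log2 difference of 0.49 that did not pass (adjusted p = 0.389). Atf3, Chac1, Trib3, Nupr1 and Creb3l1 had too few UMIs for the filter of the edgeR fit. Among them Trib3, a pseudokinase induced through ATF4 and CHOP, gave 2, 0, 25 and 4 UMIs.

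The promoters of genes that rose and were named here, many of them from the ER lists, were searched for sequence elements of these pathways, in windows of 250 bases before to 50 after each RefSeq gene start (GRCm38.p6), on both strands. The ER stress response element (ERSE, the letters CCAAT, then 9 bases of any kind, then CCACG) is known to be bound by NF-Y together with ATF6 or XBP1, and ERSE-II joins ATTGG and CCACG with a single base between them. An ERSE was found in 7 of the 27 named genes that rose and had a window (25.9%): Derl3, Creld2, Hspa5, Hsp90b1, Dnajc3, Pdia6 and Canx. Of all 27025 genes with a window, 37 held one (0.137%). Herpud1 held an ERSE-II, which 12 of all genes held (0.0444%). All 7 genes with an ERSE stand in the ER folding or ERAD lists, which were chosen by function. Listed genes that did not rise were not counted apart, so the shares do not tell whether the element goes with the rise. These matches are descriptions of the letters in these windows and not of binding. The stretches around the match are shown for 5 genes with large or precise rises, 5′ to 3′ on the strand of the gene, with the match in capitals; in Derl3 and in the second match of Hsp90b1 the element reads on the opposite strand, as does the TGATGNAA element marked by the first capitals in Herpud1.
Derl3, chr10:75893222-75893280, plus strand: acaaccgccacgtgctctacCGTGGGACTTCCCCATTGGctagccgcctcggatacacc
Hspa5, chr2:34772005-34772063, plus strand: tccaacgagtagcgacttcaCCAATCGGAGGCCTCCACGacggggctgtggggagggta
Dnajc3, chr14:118937807-118937865, plus strand: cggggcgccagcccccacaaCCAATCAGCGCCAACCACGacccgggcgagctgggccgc
Hsp90b1, chr10:86705513-86705676, minus strand: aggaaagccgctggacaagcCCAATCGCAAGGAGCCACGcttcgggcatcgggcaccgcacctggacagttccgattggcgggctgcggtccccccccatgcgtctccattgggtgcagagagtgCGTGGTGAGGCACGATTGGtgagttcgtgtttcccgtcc
Herpud1, chr8:94386297-94386407, plus strand: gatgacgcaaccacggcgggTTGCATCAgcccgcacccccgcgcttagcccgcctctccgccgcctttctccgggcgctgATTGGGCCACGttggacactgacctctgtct

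The matches lie upstream of the start in these genes, at bases -65 to -47 in Hspa5, -105 to -87 in Dnajc3, -156 to -138 in Derl3 and -52 to -42 in Herpud1, counted from the RefSeq start. The element TGATGNAA, which C/EBP and ATF factors including ATF4 are known to bind, was found in 3 of the 27 genes (Herpud1, Aars and Slc1a4; 11.1%) and in 4.51% of all genes. TGACGTGG, read by XBP1, was found in Txndc11 and in 0.714% of all genes, and TGACGTCA, which shares its first letters with it, in Pcsk1 and in 2.03%.

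Amino acid transporters rose in 4 of 9 cases and none fell, with a median of 0.808. Slc7a1, which takes up arginine and lysine, was at 14.6, 9.83, 57.6 and 32.2 CPM and rose by 1.83 ± 0.278 (adjusted p = 0.0231). Slc1a4, a carrier of alanine, serine and cysteine, rose by 1.40, Slc7a5, the light chain of a carrier of large neutral amino acids, by 1.28, and Slc38a2, a carrier of glutamine and other small neutral amino acids, by 0.81. Slc7a3, which also takes up arginine and lysine, was at 1.82, 1.23, 14.5 and 3.74 CPM with no overlap between the groups and did not pass (2.50 ± 0.604, adjusted p = 0.108). Its log2 fold change was 1.22 without Sel1L-SynCre replicate 1. Slc1a5 had too few UMIs to be tested. Without Sel1L-SynCre replicate 1 the calls on Slc1a4 (adjusted p = 0.155), Slc7a5 (adjusted p = 0.127) and Slc38a2 (adjusted p = 0.077) ended. The granule-led clusters gave 4 of 8 and the libraries without Sel1L-fl/fl replicate 1 gave 5 of 9.

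Of the cytosolic tRNA synthetases, 3 of 19 rose: Cars (1.32), Aars (1.16) and Nars (0.99), for cysteine, alanine and asparagine. None fell, the median was 0.579, and the aspartate enzyme Dars was at 51.7, 49.8, 53.5 and 46.9 CPM. Within the granule-led clusters 6 rose, and without Sel1L-fl/fl replicate 1 there were 9. Without Sel1L-SynCre replicate 1 the calls on all 3 ended, at 0.82 for Cars (adjusted p = 0.118), 0.83 for Aars (adjusted p = 0.0701) and 0.66 for Nars (adjusted p = 0.0641).

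In the list of serine, folate-linked carbon, asparagine, proline and cystathionine synthesis, 0 of 17 genes passed, with a median of 0.525 and with log2 differences of 1.66 for Shmt2, 1.41 for Mthfd2, 1.16 for Psph and 1.11 for Phgdh. Psph, the last enzyme of serine synthesis, was at 12.4, 15.4, 39.2 and 21.7 CPM, without overlap (adjusted p = 0.0951). With replicate number as a block, 8 of the 17 genes were called higher. Restricted to the granule-led clusters, 5 of 15 genes of this list rose, and without Sel1L-fl/fl replicate 1 there were 8 of 18.

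**Figure D3:**
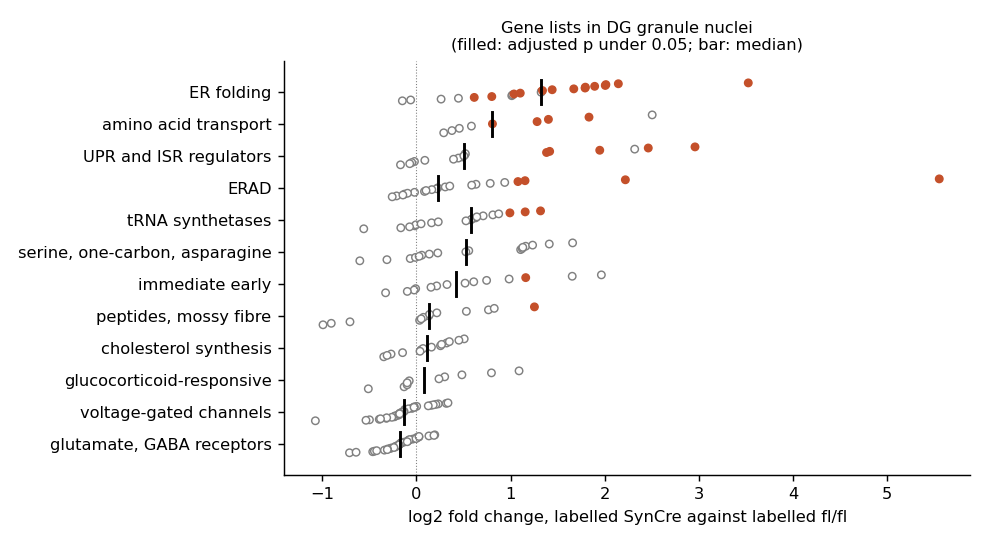
Log2 fold change, SynCre-labelled against fl/fl-labelled, of each tested gene of 12 lists in DG granule nuclei. Filled points passed the edgeR test and bars mark the median of each list. ER folding lies farthest to the right with a median of 1.33, whereas the voltage-gated channels and the glutamate and GABA receptors have medians of -0.136 and -0.176 and no filled point.

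Genes of granule neuron identity and signalling are given beside the 0.806% of all genes that passed, a share at which lists of this size would hold few or no calls. Of the 11 granule markers that the rule did not use, 0 passed (median -0.0614). Nor did any of 35 glutamate and GABA receptor genes (median -0.176) or any of 37 voltage-gated channel genes (median -0.136); in the granule-led clusters 1 granule marker, 1 receptor and 2 channels were called lower. Without Sel1L-fl/fl replicate 1, 3 granule markers, 7 receptors and 4 channels were lower, and 1 receptor and 2 channels were higher. Gria1, the AMPA receptor subunit GluA1, was at 2243, 2153, 2162 and 2248 CPM. Of 10 genes of p53 and apoptosis, 10 glucocorticoid-responsive genes, 14 genes of cholesterol synthesis, 5 heat shock genes, 5 NRF2 genes and 15 genes of Wnt, BMP and activin signalling, 0 passed. In the granule-led clusters 1 Wnt ligand rose (Wnt7a, 2.76) and another fell (Wnt9a), and Nr3c2, the mineralocorticoid receptor, fell by 0.63. Without Sel1L-fl/fl replicate 1 the glucocorticoid list had 1 gene higher and 1 lower and the Wnt, BMP and activin list 2 higher and 1 lower. Wnt9a, a Wnt ligand, was at 14.4, 24.8, 4.11 and 7.49 CPM with no overlap, and its log2 difference of -1.71 did not pass (adjusted p = 0.0618) although it did in the granule-led clusters (-1.76, adjusted p = 0.0339).

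Among 13 genes of granule neuron peptides and mossy fibres, Pcsk1 passed, and Bdnf (0.22), Penk (0.03) and Pdyn (-0.99) did not. Pcsk1, a protease that matures propeptides, was at 9.02, 8.4, 17.2 and 24.7 CPM and rose by 1.25 ± 0.23 (adjusted p = 0.0447), a call that ended in the granule-led clusters (0.38, adjusted p = 0.632) and without Sel1L-SynCre replicate 2 (0.97, adjusted p = 0.176). Of 14 immediate early genes, Nr4a2 rose by 1.16 (11.3, 13.1, 24.2 and 30 CPM, adjusted p = 0.0318), and this call too ended in the granule-led clusters (0.81, adjusted p = 0.127) and without Sel1L-SynCre replicate 2 (1.00, adjusted p = 0.0893). Without Sel1L-fl/fl replicate 1, 4 of the 14 were higher. Fos and Fosb were low, at no more than 6.99 CPM.

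Other genes with large rises were Eef1akmt3, a lysine methyltransferase (2.27, with 17, 7, 33 and 31 UMIs), Cdk2ap2 (2.27) and Magt1 (2.16), a subunit of the oligosaccharyltransferase. Magt1 was at 13.6, 13.5, 69.7 and 51.9 CPM. The call on Eef1akmt3 ended without Sel1L-SynCre replicate 1 (adjusted p = 0.0868) and without Sel1L-SynCre replicate 2 (adjusted p = 0.0625). The genes Ddit3, Eef1akmt3, Herpud1, Hsp90b1, Pdia3, Pdia6, Txndc11, Atf5, Eif2ak3, Syvn1, Slc7a5, Aars, Cars, Psph, Penk and Litaf overlap a gene on the other strand in the annotation.

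Of the 8 oligodendrocyte markers, 2 fell, with a median log2 fold change of -2.46 over the 8, and in the granule-led clusters 2 of the 6 that could be tested fell, with a median of -1.29. Without Sel1L-fl/fl replicate 1, 6 of the 8 fell. Among the named genes with the largest falls, Fa2h, which makes the hydroxylated lipids of myelin, gave 117, 34, 5 and 1 UMIs (11.9, 6.96, 1.21 and 0.25 CPM) and fell by 3.68 on the log2 scale (SE 0.566, adjusted p = 0.0243). Cldn11, Mal, Aspa, Gjc3, D7Ertd443e, Litaf and Sec14l5 fell by between 1.74 and 2.63, of which Sec14l5 lost its call without Sel1L-SynCre replicate 1 (adjusted p = 0.0646) and Cldn11 (adjusted p = 0.0802) and Gjc3 (adjusted p = 0.0537) lost theirs without Sel1L-SynCre replicate 2. The log2 fold change of Fa2h was -5.18 without Sel1L-SynCre replicate 1 and -2.98 without Sel1L-SynCre replicate 2; without the former those of Cldn11 (-3.82), Mal (-3.48), Aspa (-3.06) and Gjc3 (-2.70) were also larger in size.

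Beside these falls, the oligodendrocyte markers, a list that holds Mal itself, summed to 523 and 283 CPM in the fl/fl-labelled libraries and 179 and 110 CPM in the SynCre-labelled ones. Aspa, Gjc3 and Sec14l5 were among the leading genes of the oligodendrocyte-led clusters. In the granule-led clusters Mal (-3.41, adjusted p = 0.0147) passed, Sec14l5 did not (-0.45, adjusted p = 0.7), and Fa2h, Cldn11, Aspa, Gjc3, D7Ertd443e and Litaf had too few UMIs to be tested. With Scrublet calls left out of all DG granule nuclei, the calls on Mal (-2.35, adjusted p = 0.07), Gjc3 (-0.165, adjusted p = 0.934) and Sec14l5 (-0.42, adjusted p = 0.717) ended in edgeR. The part of oligodendrocyte RNA in these falls was not tested.

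Onecut1 (chr9:74861921-74891781), a homeodomain transcription factor that stands in no list of other cell types here, fell as well. It gave 84, 70, 9 and 6 UMIs (8.51, 14.3, 2.18 and 1.5 CPM), with no overlap, and fell by 2.58 (SE 0.421, adjusted p = 0.0318), and by 2.55 in the granule-led clusters. Its call ended when nuclei with 2 or more glial UMIs were left out (-1.82, adjusted p = 0.142). Further genes outside the oligodendrocyte list fell too; they are named here after their values were seen. Zfp804b gave 2791, 1604, 483 and 525 UMIs and fell by 1.30 (SE 0.109, adjusted p = 0.000833). Brinp3 fell by 1.01, Unc5d, a netrin receptor, by 0.98, Rapgef5 by 0.86, Cntnap5b by 0.77 and Trpm3, a cation channel, by 0.61. Each of these 6 genes was also called lower in the granule-led clusters, where Zfp804b fell by 1.99 and Trpm3 by 0.64.

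Whether the changes differed between hippocampal principal neurons was tested against CA1-like nuclei (1498) and CA3-like nuclei (695) of the same libraries, in a model with library as a block. In CA1-like nuclei 0 of 13279 genes (0%) passed between the labels in edgeR, with 1010 at an unadjusted p under 0.05. The effect in DG granule nuclei differed from that in CA1-like nuclei for 107 of 14392 genes (0.743%), being more positive in DG granule nuclei for 77 and more negative for 30. The 77 included 15 ER folding genes, and 158 of 14037 genes passed with the granule-led clusters in place of all DG granule nuclei. With DESeq2 the number that passed was 21, and in edgeR it fell when either Sel1L-SynCre library was left out. Without Sel1L-fl/fl replicate 1 the count was 221 and without Sel1L-fl/fl replicate 2 it was 313.

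Hsp90b1 was at 51.2, 45.6, 63.4 and 41.9 CPM in CA1-like nuclei, where the groups overlapped, and its effect was greater in DG granule nuclei by 1.75 ± 0.131 (adjusted p = 2.59e-05). For Dnajc3 (CA1-like 52.1, 59.7, 64.2 and 57.7 CPM) the difference was 1.91 ± 0.147 and for Hspa5 it was 1.62 ± 0.17. Creb3l2 was at 26.1, 20.5, 28.7 and 24.2 CPM in CA1-like nuclei, above the 7.74 and 2.61 CPM of fl/fl-labelled DG granule nuclei on the same unscaled basis, with a log2 difference there of 0.11 that did not pass, and the effects differed by 2.88 ± 0.256 (adjusted p = 8.03e-05). Sel1l was at 116, 105, 117 and 102 CPM in CA1-like nuclei and its difference was 1.16 ± 0.115 (adjusted p = 0.000171). Cre UMIs in CA1-like nuclei numbered 5, 0, 1 and 1, or 0.605, 0, 0.25 and 0.235 CPM, below the 4.85 to 5.35 CPM of DG granule nuclei in the 3 libraries that held them. Derl3 had 2, 0, 5 and 5 UMIs in CA1-like nuclei, too few for a precise difference (2.81 ± 1.44, adjusted p = 0.617).

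CA3 neurons are the targets of the mossy fibres. In CA3-like nuclei 11 of 12419 genes (0.0886%) passed between the labels, all higher in SynCre-labelled nuclei, and the effect differed from that in DG granule nuclei for 12 of 14275 genes (0.0841%), 6 in each direction. That count moved with each library left out, to 109 without Sel1L-fl/fl replicate 1, 138 without Sel1L-fl/fl replicate 2, 87 without Sel1L-SynCre replicate 1 and 0 without Sel1L-SynCre replicate 2. Derl3 gave 0, 2, 40 and 37 UMIs in CA3-like nuclei and rose there by 5.22 (adjusted p = 0.00708), with a difference from DG granule nuclei of 0.22 ± 1.7. Dnajc3 was at 48, 54.4, 150 and 126 CPM and rose there by 1.37, with a difference of 0.64 ± 0.156 that did not pass (adjusted p = 0.192). With the granule-led clusters in place of all DG granule nuclei, 34 genes passed, among them Dnajc3 (0.85, adjusted p = 0.0149), Creb3l2 (3.12, adjusted p = 0.000508) and Herpud1 (1.29, adjusted p = 0.0305). Pdia6 (1.02 ± 0.179, adjusted p = 0.0326) and Txndc11 (1.02 ± 0.148, adjusted p = 0.0109) were the ER folding genes whose effect was greater in all DG granule nuclei. Sel1l was at 94, 107, 184 and 177 CPM in CA3-like nuclei, and Cre at 3.15, 0, 5.2 and 6.77 CPM. The cell types come from the same libraries, and a difference that did not pass does not show that the effects were the same.

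**Figure D4:**
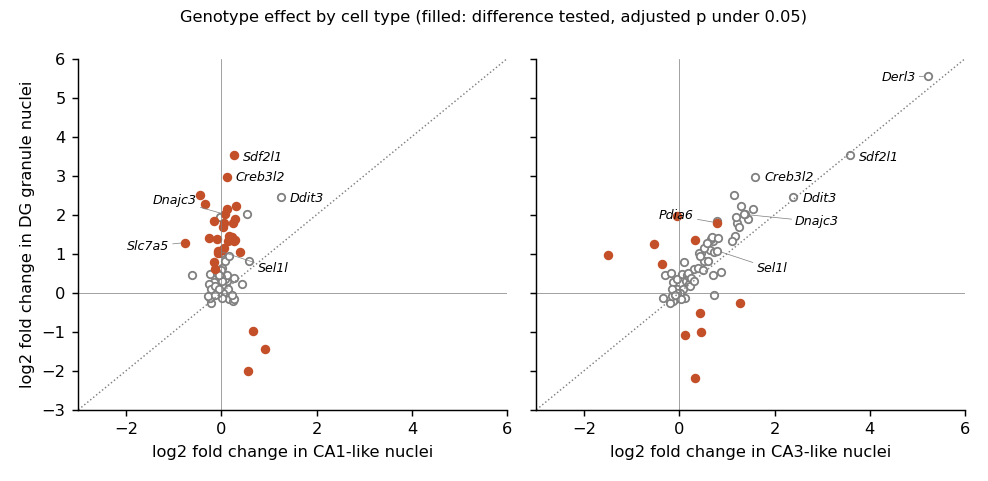
Log2 fold change, SynCre-labelled against fl/fl-labelled, in DG granule nuclei (y axis) against CA1-like nuclei (left, x axis) and CA3-like nuclei (right, x axis), for the genes of ER folding, ERAD, UPR and amino acid transport and the genes named for their interaction. Filled points have a tested difference between the cell types with adjusted p under 0.05, and the dotted line marks equal effects. On the left Creb3l2 sits at 2.96 against 0.11, on the right at 2.96 against 1.59.

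The higher share of ER folding UMIs was seen in most DG granule nuclei of both SynCre-labelled libraries. UMIs of the 23 ER folding genes in the files made up a median of 7.37, 7.58, 22.4 and 16.7 per 10000 UMIs of a nucleus, and 7.38, 7.51, 23.5 and 17.9 in the granule-led clusters. Above the 90th percentile of the fl/fl-labelled nuclei (11.7 per 10000) lay 9.52% and 11% of the fl/fl-labelled nuclei and 89.4% and 81.7% of the SynCre-labelled ones. Over the percentile set in their own type, the shares were 9.48%, 11.3%, 49.1% and 46.8% in CA3-like nuclei and 9.33%, 11.3%, 23.7% and 12.4% in CA1-like nuclei. Pooled over nuclei, the 48 nuclei of Sel1L-fl/fl replicate 1 with a Cre UMI held 7.35 ER folding UMIs per 10000 and the 782 without one held 7.58. The same pooled values were 20.9 and 20.3 in Sel1L-SynCre replicate 1, and 14.5 and 16.1 in Sel1L-SynCre replicate 2. Nuclei with a Cre UMI were deeper, with median UMIs of 10986.5 against 9444.5, 12205 against 9012 and 13110 against 9063 in these 3 libraries. A nucleus without a Cre UMI may still have held Cre RNA that was not captured.

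**Figure D5:**
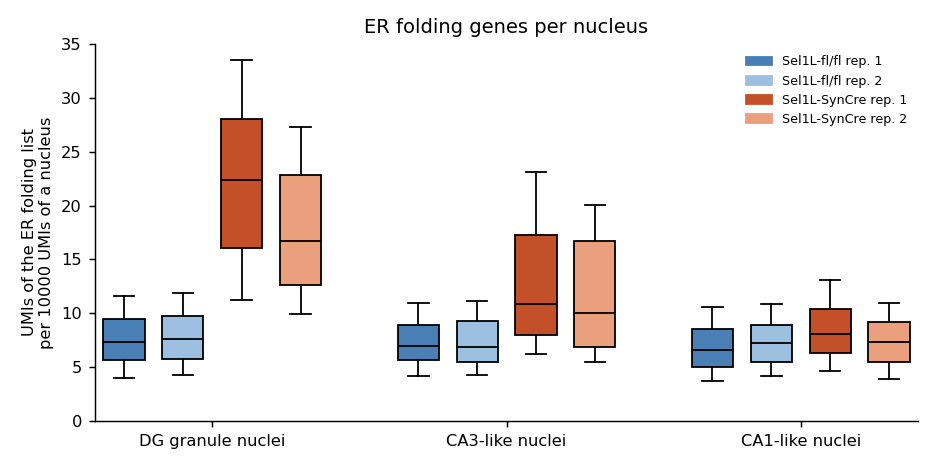
UMIs of the ER folding list per 10000 UMIs of a nucleus, by library, in DG granule, CA3-like and CA1-like nuclei. Boxes span the quartiles with the median as a line, and whiskers span the 10th to the 90th percentile of nuclei. The lower quartiles of DG granule SynCre-labelled nuclei (16.0 and 12.6) lie above the upper quartiles of the fl/fl-labelled ones (9.44 and 9.73).

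DG granule nuclei made up 12.6%, 9.86%, 8.54% and 7.51% of excitatory nuclei, which is 11.2% ± 1.93 (SD, n = 2) in the fl/fl-labelled libraries and 8.02% ± 0.731 (SD, n = 2) in the SynCre-labelled ones. The difference of -3.20 percentage points had a two-sided exact permutation p of 0.33, the smallest that 2 libraries against 2 allow. It was -1.84 points without Sel1L-fl/fl replicate 1 and -2.24 points for nuclei in the granule-led clusters. After each nucleus was thinned to 2000 UMIs the shares were 3.08%, 2.41%, 2.57% and 1.18%, so that the groups overlapped, and the difference was -0.876 points (exact permutation p = 0.667). Of all kept nuclei they made up 6.71%, 5.3%, 4.69% and 4.62%, a difference of -1.35 points (exact permutation p = 0.33). The 7 genes that set membership summed to 1508, 1531, 1310 and 1228 CPM in the granule-led clusters, and their part in these differences was not tested.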

How the data were processed

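Nuclei of cortex and hippocampus from 4 mice were profiled with the 10x Genomics 3′ v3 assay, and per the labels the authors aligned reads and counted UMIs with Cell Ranger 6.1.0 on GRCm38. The deposited values are raw UMI counts per gene and barcode, with a Cre feature among 32286 features; the use of strand in counting is not given in the sources used here. Barcodes with 600 genes or fewer, or with 5% or more mitochondrial UMIs, were left out, which kept 12362, 8436, 8065 and 7231 of 12599, 8481, 8173 and 7366 barcodes (122870443, 76617523, 75227337 and 74082610 UMIs in all barcodes). Doublets were scored with Scrublet with the doublet rate set by the number of nuclei in each library and kept in the main analysis.

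UMIs of each cell type were summed per library and compared between labels with the edgeR 4.0.16 quasi-likelihood F test (TMM scaling, filterByExpr, Benjamini-Hochberg adjustment, threshold 0.05) in R 4.3.3. CPM of DG granule nuclei in the genotype comparison are TMM-scaled, and CPM of markers, of Cre and of CA1-like and CA3-like nuclei are not. Differences between cell types were tested as interactions with library as a block. Shares were compared with a two-sided exact permutation test, and intervals, which cover counting error only, are not used for tests. A count of 0 was given a limit of 3 counts. Excitatory nuclei were clustered with scanpy 1.11.5 (2000 variable genes, 30 components, 20 neighbours, Leiden resolution 0.5), and CA1-like and CA3-like names rest on marker lists. Named genes are the 10 largest changes in each direction with at least 20 UMIs, up to 8 members of each list that passed, the first 3 of each list, the 5 largest interactions in each direction, Sel1l and Cre. The code was tested on simulated data. Of genes given a log2 change of 1 in size, 49 of 65 were recovered between labels. For the difference against CA1-like nuclei 22 of 66 were recovered, and against CA3-like nuclei 18 of 66. At a size of 2 these numbers were 64 of 64, 58 of 65 and 52 of 65. Unchanged genes that were called numbered 12, 12 and 2. The rule, the lists and the tests were chosen with earlier results of these data known. DESeq2 1.42.0, RLE scaling, other count filters, thinning, other member rules, a replicate block and leaving out each library were tried as alternatives. The labels do not say whether equal replicate numbers mark littermates or a shared preparation. Some results are not reported here.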

Additional observations from a re-analysis of the deposited data

Results flagged for a closer look

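For the genes below, the test of the difference itself passed between DG granule nuclei and another cell type of the same libraries (edgeR interaction, adjusted p under 0.05). Against CA1-like nuclei, the effect in DG granule nuclei was more positive on the log2 scale for Wdr49 (3.76), Sdf2l1 (3.27), Slc7a3 (2.88), Creb3l2 (2.88) and Eef1akmt3 (2.63). Wdr49 rests on 5, 5, 10 and 39 UMIs in DG granule nuclei and 10, 8, 1 and 7 in CA1-like nuclei. The effect was more negative for Col8a1 (-4.64), Anln (-2.59), D7Ertd443e (-2.58), Pde8a (-2.41) and Slc26a10 (-1.65). D7Ertd443e was among the leading genes of a cluster led by oligodendrocyte genes, and Anln gave 109, 20, 11 and 5 UMIs in DG granule nuclei. The part of oligodendrocyte RNA in these differences was not tested. Col8a1, a collagen gene, gave 73, 10, 5 and 5 UMIs in DG granule nuclei, so that Sel1L-fl/fl replicate 1 held most of them, and 4, 0, 3 and 14 in CA1-like nuclei. With the granule-led clusters in place of all DG granule nuclei, Sdf2l1, Slc7a3, Creb3l2, Eef1akmt3 and Slc26a10 still passed, Anln (adjusted p = 0.554) and Pde8a (adjusted p = 0.187) did not, and Wdr49, Col8a1 and D7Ertd443e had too few UMIs to be tested.

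Against CA3-like nuclei, the effect in DG granule nuclei was more positive for Ttn (2.54), Nr4a3 (1.95), Pcsk1 (1.77), Galnt9 (1.10) and Pdia6 (1.02), although no difference against CA3-like nuclei passed with DESeq2 or in edgeR without Sel1L-SynCre replicate 2 (102 and 853 genes at an unadjusted p under 0.05). It was more negative for D7Ertd443e (-2.52), Gm34567 (-1.53), Enpp2 (-1.46), Mbp (-1.21) and Pcdh11x (-0.96). With the granule-led clusters, Nr4a3, Galnt9, Pdia6, Gm34567 and Pcdh11x still passed, and Ttn (adjusted p = 0.0855), Enpp2 (adjusted p = 0.332), Pcsk1 (adjusted p = 0.406), Mbp (adjusted p = 0.708) and D7Ertd443e (adjusted p = 0.878) did not. Mbp belongs to the oligodendrocyte markers, which summed to 523, 283, 179 and 110 CPM in DG granule nuclei. The part of oligodendrocyte RNA in its difference and in that of D7Ertd443e was not tested.

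The Cre feature gave 52 UMIs in DG granule nuclei of Sel1L-fl/fl replicate 1, against 0 in Sel1L-fl/fl replicate 2. In other excitatory nuclei the 4 libraries held 148, 0, 82 and 96 Cre UMIs.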

How the results depend on the processing

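The 112 genes called in DG granule nuclei became 23 with no filter beyond 1 count, 49 with at least 4 of the 7 markers, 204 without Scrublet calls, 240 in the granule-led clusters (chosen after seeing the data) and 136 to 833 with a library left out. In the granule-led clusters it was 570 without Sel1L-fl/fl replicate 1, 611 without Sel1L-fl/fl replicate 2, 27 without Sel1L-SynCre replicate 1 and 197 without Sel1L-SynCre replicate 2. With DESeq2 (137), RLE scaling (108), at least 10 counts in every library (162), thinning (116) or nuclei with glial UMIs left out (141) the count stayed within 1.5 times. The last of these fits kept 51 of the 72 higher and 11 of the 40 lower genes, with 2 and 10 of them not tested there. Of 44 named genes that were called, 41 kept the call with DESeq2, 15 with no filter and 26 with at least 4 markers, and some calls ended when either Sel1L-SynCre library was left out. Fewer could be tested without Scrublet calls (39), in the granule-led clusters (38), with at least 10 counts in every library (35) and with glial UMIs left out (33). None changed direction under an alternative in which it was tested. Replicate 1 was male and replicate 2 female in both groups and only 2 pairs exist, with a correlation of deviations of -0.00852 over 10049 genes, so the numbers were not taken to pair the mice; with a replicate block 529 genes passed, and all 44 named calls were kept. The block raised the counts of called genes in most lists: ER folding from 15 to 18 of 22, ERAD from 4 to 8 of 21 with Syvn1 at an adjusted p of 0.0147 (edgeR), UPR regulators from 5 to 6 of 17, amino acid transport from 4 to 5 of 9, serine synthesis from 0 to 8 of 17, tRNA synthetases from 3 to 9 of 19, immediate early genes from 1 to 5 of 14 and p53 from 0 to 1 of 10. From 0 it called 3 receptors and 4 channels lower, 1 granule marker higher and 2 lower, 1 Wnt, BMP or activin gene and 1 glucocorticoid-responsive gene in each direction, and 1 dorsal gene lower and 1 ventral higher. It called all 8 oligodendrocyte markers lower, 1 of 2 dividing markers lower and 1 of 6 cortical markers lower.

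The 107 genes with a different effect in CA1-like nuclei became 21 with DESeq2 and 80 to 313 with a library left out. The 12 against CA3-like nuclei became 0 with DESeq2, 6 with at least 10 counts in every pseudobulk, 34 in the granule-led clusters and 0 to 138 with a library left out. The difference in the share of nuclei was -0.876 points of excitatory and -0.246 points of all kept nuclei after thinning each nucleus to 2000 UMIs, and with a library left out it ran from -4.57 to -1.84 and from -2.06 to -0.646 points. With 2 libraries a group no exact permutation test can pass. Genes with few UMIs, such as Atf3 and Chac1, were left out of the main edgeR fit by its count filter. The DESeq2 fit held all 22 regulators of the UPR and the integrated stress response and called 5 higher.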

Other observations

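Positional and developmental markers of granule neurons were measured as well. Of these, the dorsal marker Lct was part of the rule: it is counted in the dorsal sums below but was left out of the tests. The 4 dorsal DG markers, led by Gsg1l, summed to 149, 136, 158 and 150 CPM, and the 4 ventral ones, led by Cpne7, to 44.9, 61.0, 76.4 and 56.5 CPM. In the granule-led clusters the dorsal sums of the groups overlapped (162, 132, 175 and 156 CPM). So did the ventral sums there (34.9, 50.5, 49.8 and 34.6 CPM), led by Trhr. Of the 609 Cpne7 UMIs, 448 came from nuclei outside these clusters. The 6 markers of immature granule neurons, led by Dcx, which encodes a microtubule protein of migrating young neurons, summed to 86.7, 83.7, 86.1 and 94.5 CPM. In edgeR 0 of the 3 dorsal, 4 ventral and 4 immature genes that could be tested passed; in the granule-led clusters Stra6, a dorsal marker, had a called log2 fold change of -0.83, and without Sel1L-fl/fl replicate 1 there were 1 dorsal gene lower and 1 ventral gene in each direction.

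Some genes outside the lists rose in SynCre-labelled DG granule nuclei and are named after their values were seen. Nucb2, a calcium-binding protein of the secretory pathway, gave 179, 84, 364 and 220 UMIs, with no overlap between the groups, and rose by 2.01 ± 0.21 (edgeR adjusted p = 0.00333). Apoe, the lipid carrier made mostly by astrocytes, rose by 0.62 (adjusted p = 0.0439), a call that ended in the granule-led clusters (adjusted p = 0.271); the summed astrocyte markers were 61.6, 67.8, 52.4 and 62.4 CPM, and their part was not tested.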
